A study of Mus musculus with 2 samples.

Results

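The genes described here encode proteins known from lens fiber cells: the beaded filament proteins Bfsp1 and Bfsp2, lengsin (Lgsn), Grifin, Lim2, and 5 further genes, Cap2, Lctl, Birc7, Nrcam and Cd24a. They were taken by gene symbol, a gene being included where a probe carried that symbol and no other in the platform annotation. Of the 10 genes, 6 had such a probe, 1 probe each: Bfsp1, Lgsn, Grifin, Lim2, Cap2 and Cd24a. They are 6 of 13709 named genes and 6 of 19819 probes. Bfsp2, Lctl, Birc7 and Nrcam had no probe in that annotation and were not analysed here.

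The data are 2 microarrays of poly(A) RNA from the eye lens of 13-day-old mice, 1 array for the fiber cells of the cortex and 1 for the epithelium, from lenses of 5 mice. Forceps separated the capsule, with the epithelium attached to it, from the cortical fibers. No strain, genotype, sex or treatment is named in the labels, and how the RNA of the 5 mice was combined is not stated there. Each value is a normalized intensity in units of about the array median, and with 1 array per tissue nothing could be tested across samples.

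The lens grows throughout life as epithelial cells near its equator stop dividing, elongate and turn into fiber cells. A fiber cell makes crystallins in bulk and builds a cytoskeleton of its own, in which filensin (Bfsp1) and phakinin (Bfsp2) assemble into the beaded filament, an intermediate filament structure found in lens fibers. Lim2 is a fiber membrane protein of the PMP22 family, Grifin is a galectin-like protein, and lengsin is a relative of glutamine synthetase found in the lens.

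Marker genes were read first and set beside the labels. The lists were chosen with earlier results of these data known, so they are not an independent check. Of 7 lens epithelium markers, 6 were higher in epithelium by 3-fold or more, the limit used throughout, and none was higher in cortex. Over all genes, 8.17% passed that limit in epithelium and 9.41% in cortex. The defining genes Foxe3, Cdh1 and Aqp1 were at the floor in cortex. Gja1, the marker that did not pass, read 0.442 in cortex, under the floor, and 0.569 in epithelium. Of 5 measured fiber markers, 4 were higher in cortex by that limit with the deposited scaling, and Gja3, a gap junction gene, differed 2.89-fold. That count depended on the scaling: 2 after quantile normalization, 2 after a loess correction on brightness and 3 after centring on ribosomal protein genes. The share of all genes that passed in cortex was then 8.28%, 8.75% and 4.34%. The median log2 difference of the 5, cortex minus epithelium, was 2.70 as deposited and 0.62, 1.02 and 1.79 under those scalings. The epithelium count stayed at 6 under each of them, where 9.48%, 8.57% and 18.1% of all genes passed in epithelium. The free-text description of both samples names fetal liver, whereas their titles and source names give the lens. The liver genes Ttr, Apoa1 and Serpina1a were at the floor on both arrays and Afp stood at 0.660 in cortex and 0.680 in epithelium, but Ahsg (fetuin) stood at 185 and 16.9. The summed intensity of 8 liver genes was 189 in cortex and 21.6 in epithelium, nearly all of it from Ahsg.

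All 6 measured fiber genes were brighter on the cortex array, and 5 of the 6 by 3-fold or more. Lgsn and Bfsp1 differed most, by 81.8-fold and 58.8-fold. Cd24a and Grifin differed 6.14-fold and 5.04-fold, Cap2 3.19-fold, and Lim2, at 2.70-fold, lay under the 3-fold limit. Over all 13709 genes, 9.41% passed in the direction of cortex and 8.17% in that of epithelium. Of the 6689 genes at or above the median on both arrays, as all 6 fiber genes were, 13.2% and 8.81% did. A 2-fold limit took in all 6 fiber genes and 16.4% of all genes, and a 5-fold limit 4 of them and 5.09% of all genes. The median log2 difference, cortex minus epithelium, was 2.47 over the 6 fiber genes and 0.03 over the 8351 genes whose 2 values both exceeded the floor. The floor is the value, 0.499 on each array, to which dimmer signals were raised before log2. In bulk tissue such as this, fewer cells of a type and less RNA per cell cannot be told apart.

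**Figure D1:**
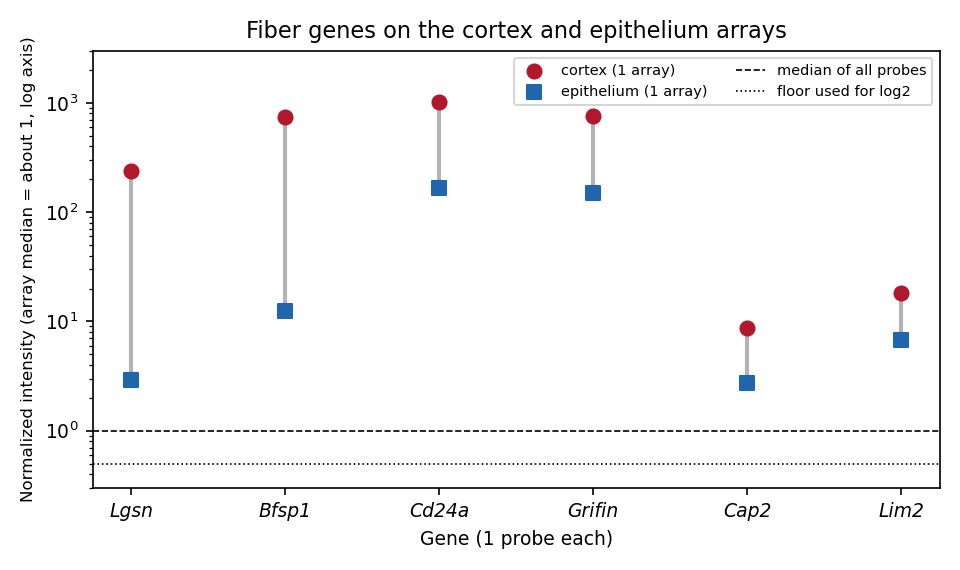
Normalized intensity (log axis) of the 6 fiber genes on the cortex array (circles) and the epithelium array (squares), with the array median (dashed) and the floor (dotted); each gene has 1 probe and each tissue 1 array, so there are no error bars. The cortex value was the higher for every gene, from 18.1 against 6.72 for Lim2 to 238 against 2.91 for Lgsn, and no epithelium value fell below the median.

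Bfsp1 (Entrez gene 12075) encodes filensin, the larger partner in the beaded filament. Its probe read 738 in cortex and 12.5 in epithelium. The log2 difference of 5.88 ranked 21st of 8351 genes in the direction of cortex, with 0.239% of them above it. Genes at the floor on 1 or both arrays were left out of this ranking. The epithelium value was 25.2 times the floor, so the fold is measured on both sides and does not depend on the floor.

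Lgsn (Entrez gene 266744) encodes lengsin. It read 238 in cortex and 2.91 in epithelium, a log2 difference of 6.35 that ranked 13th of 8351 genes. The dimmer value stood at 5.84 times the floor and 2.92 times the array median. Bfsp1 and Lgsn lay 0.48 apart in log2 difference, less than the spread between probes of 1 gene. That spread was 1.10, the pooled SD over 558 genes with several probes above the floor on both arrays. Probes with a value at the floor were left out, so the SD may be too low. An example is Igfbp5, whose probes stood at -7.91 and -0.02. Different probes may read different transcripts, so that spread is a rough guide to error and holds no variation between animals; no other measure of error was at hand.

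Grifin (Entrez gene 77998) encodes a lens protein with the fold of a galectin. It was bright on both arrays, at 754 in cortex and 150 in epithelium. Its log2 difference was 2.33, and 7.26% of genes had a larger one. The epithelium value was 300.1 times the floor, so Grifin RNA was present in the capsule and epithelium sample too.

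Lim2 (Entrez gene 233187) encodes MP20, an intrinsic membrane protein of fiber cells. It read 18.1 in cortex and 6.72 in epithelium. The log2 difference of 1.43 lay 0.15 below the 3-fold limit, with 15.1% of genes above it. At this precision Lim2 cannot be placed on either side of the 3-fold limit.

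Cap2 (Entrez gene 67252) encodes a cyclase-associated protein, which takes part in actin filament turnover. It read 8.66 in cortex and 2.71 in epithelium, the latter 5.43 times the floor. Its log2 difference of 1.68 lay only 0.09 above the 3-fold limit, again well within the spread between probes.

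Cd24a (Entrez gene 12484) encodes a small, heavily glycosylated surface protein held by a lipid (GPI) anchor and made by many cell types. It read 1027 in cortex and 167 in epithelium. The log2 difference was 2.62, and 5.38% of genes had a larger one. Neither Cd24a nor Cap2 encodes a lens structural protein in the strict sense. All 6 genes stood above the array median on the epithelium array, where the fiber marker Mip read 7.72. Whether their signal there came from epithelial cells or from fiber RNA in that sample was not tested.

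Ordered by log2 difference, the genes formed an upper pair, Lgsn and Bfsp1, and a lower group of Cd24a, Grifin, Cap2 and Lim2. The step from Bfsp1 to Cd24a was 3.26, larger than the pooled SD between probes of 1.10. Within the lower group the steps were 0.28 from Cd24a to Grifin, 0.66 from Grifin to Cap2 and 0.24 from Cap2 to Lim2, each under that SD. The median SD over the same 558 genes was 0.59, which the step from Grifin to Cap2 exceeds and the other steps do not. The order of these 4 genes also changed with the scaling.

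**Figure D2:**
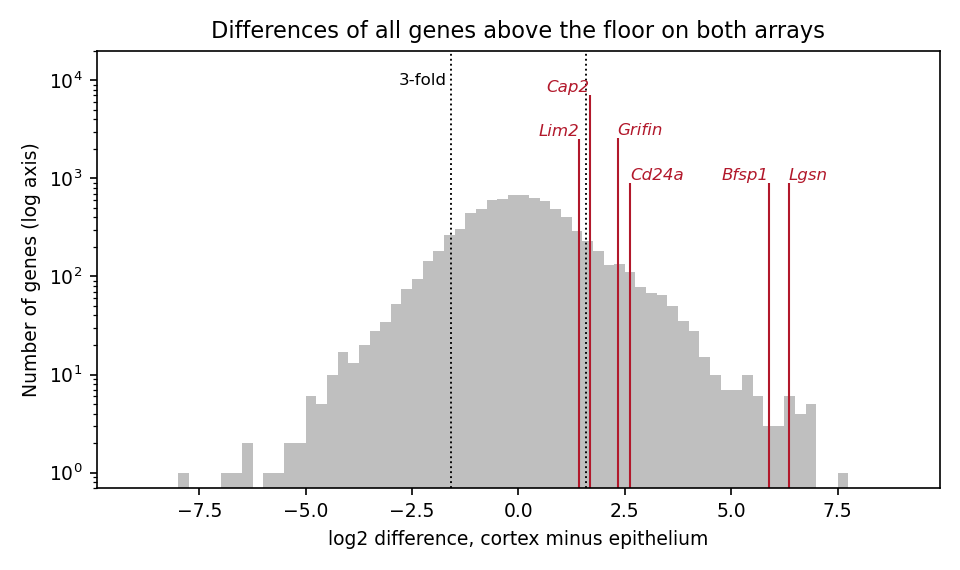
Number of genes (log axis) by log2 difference, cortex minus epithelium, for the 8351 genes measured above the floor in both tissues; red lines mark the 6 fiber genes, with heights chosen for legibility, and dotted lines mark 3-fold. Lgsn (6.35) and Bfsp1 (5.88) lie in the far right tail, Cd24a and Grifin on the right flank, and Cap2 (1.68) and Lim2 (1.43) on either side of the dotted line.

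The scaling between the arrays moved Cd24a, Grifin and Cap2 across the limit. With quantile normalization, with a loess correction on brightness, and with centring on ribosomal protein genes, 3 of the 6 passed in cortex. The share of all genes that passed in cortex was then 8.28%, 8.75% and 4.34%, and in epithelium 9.48%, 8.57% and 18.1%. The median log2 difference over genes measured on both sides was -0.11, -0.09 and -0.75. Lgsn and Bfsp1 passed under all 4 scalings, at 5.45 to 6.35 and 4.97 to 5.88 on the log2 scale. Cap2 passed after quantile normalization (1.60) and loess (1.70) but not after ribosomal centring (0.77). Cd24a passed after ribosomal centring (1.71) but stood at 1.49 after quantile normalization and 1.36 after loess. Grifin passed with the deposited scaling only, and stood at 1.22 after quantile normalization, 1.14 after loess and 1.43 after ribosomal centring. Lim2 passed under none, with 0.53 as its lowest value. No fiber gene changed direction under any of them.

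**Figure D3:**
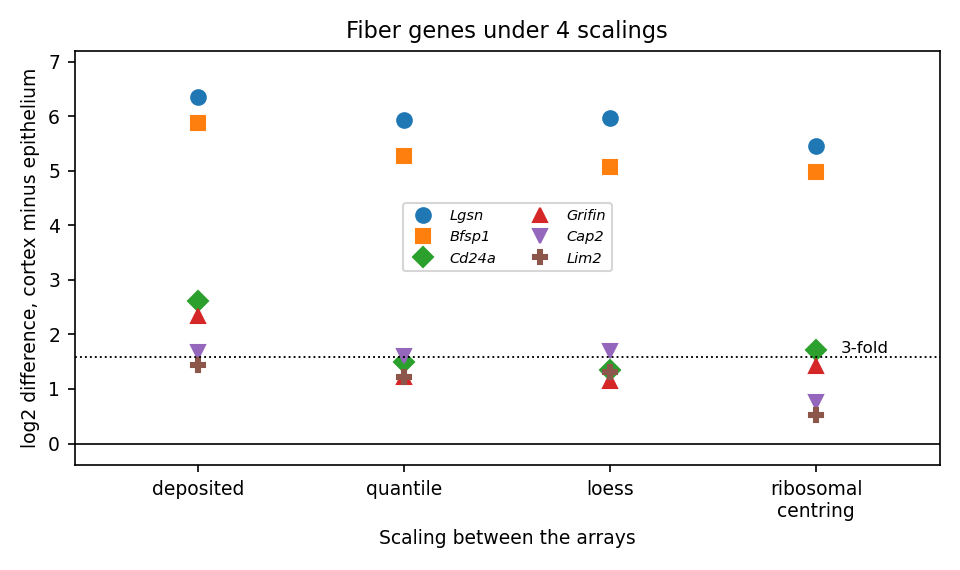
Log2 difference, cortex minus epithelium, of the 6 fiber genes (1 marker each, 1 array per tissue) with the deposited scaling and 3 other scalings of the arrays; the dotted line marks 3-fold and the solid line 0. Lgsn and Bfsp1 stay above 4.9 in every column, while Cd24a, Grifin and Cap2 lie above the 3-fold line in some columns and below it in others, and Lim2 lies below it in all 4.

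Related genes on the same arrays were set beside the fiber genes. Bfsp1 belongs to the intermediate filament family, of which 19 other genes were measured. Of these, 1 passed in cortex, 3 passed in epithelium and 4 were at the floor on both arrays. Over all genes, 9.41% passed in cortex and 8.17% in epithelium. Vim (vimentin), the main intermediate filament protein of lens epithelium and young fibers, read 306 in cortex and 286 in epithelium, a log2 difference of 0.10. That difference turned negative under the other scalings, to -1.06 after loess, so vimentin had no settled direction. Krt8 (keratin 8) was the gene higher in cortex, at 9.27 against 0.743 (the latter between the floor and the array median), whereas Krt19 (keratin 19) read 15.7 in epithelium and lay at the floor in cortex, at least 31.5-fold higher in epithelium. Lmnb2 (lamin B2) was 4.29-fold higher in epithelium, and Krt7 (3.50-fold) was too, although Krt7 was lost when the floor was raised to the median of the array, a setting under which 8.07% of genes passed in cortex and 6.4% in epithelium.

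Lgsn and its relative Glul (glutamine synthetase, the enzyme that makes glutamine) lay on opposite sides. Glul read 1.17 in cortex and 16.9 in epithelium, a log2 difference of -3.86, and it ranged from -3.83 to -4.77 over the 4 scalings. Of 8 galectin genes, the relatives of Grifin, none passed the limit in cortex, where 9.41% of all genes did. Only 2 of the 8 were above the floor on both arrays, and 3 were at the floor on both. Lgals1 (galectin 1) read 29.6 in cortex and 16.3 in epithelium, and its log2 difference of 0.86 became -0.05 after ribosomal centring. Lgals9, at the floor in cortex, was at least 3.79-fold higher in epithelium, but it too was lost with the raised floor.

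Pmp22, a myelin and epithelial membrane protein related to Lim2, read 214 in cortex and 290.0 in epithelium, a log2 difference of -0.44. Emp3 stood at -1.06 and Emp1 at the floor on both arrays. Cap1, the other cyclase-associated protein gene, lay under the floor in both tissues (0.476 and 0.264). None of the 9 actin turnover genes reached 3-fold in either direction with the deposited scaling, and Pfn2 (profilin 2) passed in epithelium under the other 3. Of 5 genes for other small GPI-anchored surface proteins, none passed the limit in cortex, where 9.41% of all genes did. Of the 5, 2 were above the floor on both arrays and 2 at the floor on both. Prnp read 2.08 in cortex against 1.09 in epithelium. Cd59a (6.42-fold) and Ly6e (by 7.34-fold or more) passed in epithelium.

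**Figure D4:**
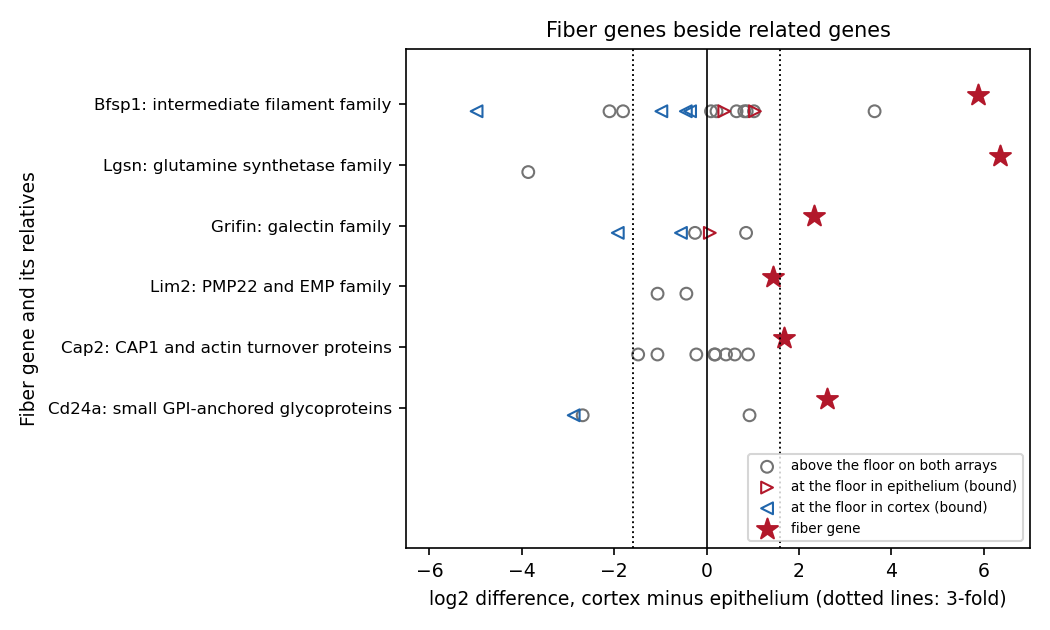
Log2 difference, cortex minus epithelium, of each fiber gene (star) and of the measured genes of its family or pathway (open symbols; triangles are bounds, since 1 array is at the floor, and genes at the floor on both arrays are not drawn); dotted lines mark 3-fold, and each point is 1 array against 1 array. Each star lies to the right of the genes drawn in its row, from 1.43 for Lim2 against -0.44 for Pmp22 to 6.35 for Lgsn against -3.86 for Glul. Cap1 is not drawn, so the row of Cap2 holds other actin turnover genes, and the genes beside Cd24a are other GPI-anchored surface proteins.

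Relatives of 3 of the genes without a probe were also read. Of 6 listed genes around the glycosidase family of Lctl, 2 were measured. Klb (beta-klotho) read 4.17 in cortex and was at the floor in epithelium, at least 8.36-fold higher in cortex. Kl (klotho) was at the floor on both arrays. The inhibitor of apoptosis family and its antagonists, to which Birc7 (livin) belongs, had 9 measured genes. Of these, 2 were at the floor on both arrays and none passed the limit in cortex, where 9.41% of all genes did. Htra2, at 25.5 in cortex and 10.2 in epithelium, came nearest. Birc5 (survivin, which acts in cell division) was 7.01-fold higher in epithelium. Around Nrcam, a neural cell adhesion protein that binds ankyrins, Ank3 (ankyrin G) was 3.40-fold higher in cortex on its brightest probe. Its other probes stood at 0.91 and 0.78 on the log2 scale, under the limit, and the brightest did not pass after quantile normalization (1.57) or ribosomal centring (0.86). Chl1 was at the floor on both arrays.

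A list of 20 fiber membrane, cytoskeleton and related genes had 16 other measured genes. Of these, 5 passed in cortex, 1 passed in epithelium and 3 were at the floor on both arrays. Over all genes, 9.41% passed in cortex and 8.17% in epithelium. Hspb1, Mip and Gja3 of this list are also among the fiber markers above. The median log2 difference of the 16 was 1.02, beside 0.00 over all 13709 genes. Hspb1 (a small heat shock protein, log2 difference 6.43), Fabp5 (a fatty acid binding protein, 3.79), Mip (aquaporin 0, the main membrane protein of fibers, 3.44) and Tmem40 (2.47) differed most. Hspb1, Fabp5 and Mip passed under all 4 scalings, and Tmem40 did not after ribosomal centring (1.57). Crybb1 (a beta-crystallin, 2.23) also passed as deposited, but under none of the other scalings, and changed direction after quantile normalization (-0.30). Sptb (beta spectrin of the membrane skeleton) went the other way, at 25.6 in cortex and 101 in epithelium. Quantile normalization and loess each gave 4 genes in cortex against 2 in epithelium, and ribosomal centring gave 3 against 3. Under these scalings, 8.28%, 8.75% and 4.34% of all genes passed in cortex, and 9.48%, 8.57% and 18.1% in epithelium.

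Of 8 measured genes for proteins that bind or accompany the beaded filament, 3 passed in cortex, where 9.41% of all genes did. They were Mip and the alpha-crystallin chaperones Cryaa (4.17-fold) and Cryab (3.65-fold), and Mip and Cryaa are also among the fiber markers above. Under each of the other scalings only Mip of these 8 passed, where 4.34% to 8.75% of all genes passed in cortex. Cryab changed direction after quantile normalization (-0.25). Ppl (periplakin, a linker that binds the beaded filament) read 13.9 in cortex and 20.8 in epithelium, and Evpl (envoplakin) lay at the floor in cortex. Bfsp1 differed 58.8-fold between the arrays while vimentin, Ppl and Nes (nestin, log2 difference 0.22) differed by less than 3-fold under the deposited scaling.

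Markers of neighbouring cells were read for the same arrays. Of 8 ciliary body genes, 4 passed in epithelium (among them Ptgds, at 7.54 in cortex and 123 in epithelium), where 8.17% of all genes did. Gpx3, another of the 4, lay at the floor in cortex and was lost with the raised floor. The summed intensity over the 8 genes was 30.3 in cortex and 172 in epithelium. Of 12 retinal neuron genes none passed in either direction, with summed intensities of 14.7 and 8.68, and 5, among them Gnat1, Stmn2 and Elavl3, were at the floor on both arrays. None of 6 vascular or 6 macrophage genes passed. Of 9 pigment cell genes, 2 passed in epithelium and 1 in cortex (summed intensities 8.26 in cortex and 16.5 in epithelium). Over all genes, 8.17% passed in epithelium and 9.41% in cortex. The 2 in epithelium were Oca2 (17.4-fold) and Tyrp1 (by 6.62-fold or more), which also passed under the other scalings and floors. Of 5 erythroid genes 1 passed, in cortex (4.89 and 2.91). Both cortex calls, Dct and Epb42, were lost after ribosomal centring and with the raised floor. Fiber markers were read on the epithelium array as well, with Mip at 7.72, Cryaa at 468 and a summed intensity of 1201 over 5 markers, against 7574 in cortex; their part in the epithelium values of the fiber genes was not tested.

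RefSeq windows around the transcription start (build GRCm38.p6) were found for 9 of the 10 genes, and for 5 of the 6 with a probe; Cd24a had none. They were searched on both strands for the heat shock element pairs GAANNTTC and TTCNNGAA, the Maf site TGCTGAC and the SOX sites ACAATG and ACAAAG, which are motifs of factor families that act in lens fibers. The 250 bases before the start are shown for the gene with the largest difference (Lgsn), the beaded filament gene (Bfsp1) and the gene with the smallest difference (Lim2), 5′ to 3′ on the strand of the gene, with matches in capitals (CTTTGT is ACAAAG and CATTGT is ACAATG read on the other strand).
Lgsn, chr1:31176185-31176434, plus strand: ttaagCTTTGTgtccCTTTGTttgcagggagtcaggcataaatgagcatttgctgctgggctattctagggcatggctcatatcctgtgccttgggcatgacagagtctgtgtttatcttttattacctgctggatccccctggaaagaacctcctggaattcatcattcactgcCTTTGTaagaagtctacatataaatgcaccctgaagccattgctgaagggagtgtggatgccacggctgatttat
Bfsp1, chr2:143863174-143863423, minus strand: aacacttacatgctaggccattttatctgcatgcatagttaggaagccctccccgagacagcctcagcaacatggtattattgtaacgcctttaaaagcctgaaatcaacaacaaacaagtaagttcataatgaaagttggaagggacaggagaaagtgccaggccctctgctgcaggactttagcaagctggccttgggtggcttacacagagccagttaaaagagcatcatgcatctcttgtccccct
Lim2, chr7:43429849-43430098, plus strand: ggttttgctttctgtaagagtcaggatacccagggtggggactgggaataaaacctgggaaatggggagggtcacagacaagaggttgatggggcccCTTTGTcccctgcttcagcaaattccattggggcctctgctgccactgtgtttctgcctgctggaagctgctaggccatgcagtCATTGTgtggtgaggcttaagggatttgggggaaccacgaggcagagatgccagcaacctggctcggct
In these stretches Lgsn held 3 matches to ACAAAG, Lim2 held 1 to ACAAAG and 1 to ACAATG, and Bfsp1 held none. Over the full windows, which run to 50 bases after the start, ACAAAG matched in 3 of the 5 measured genes (Lgsn, Lim2 and Cap2) and in 18.7% of 32851 windows. ACAATG matched in 2 of the 5 (Lim2, and Bfsp1 at 34 bases after the start) and in 12.6% of windows. Neither heat shock pair (7.86% and 8.52% of windows) nor the Maf site (4.67%) matched in any of the 5. A match is a run of letters and not a shown binding site, and a window without one says nothing about the factor.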

How the data were processed

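Poly(A) RNA of each tissue was hybridized to a 1-colour CodeLink mouse array and read with the CodeLink software, per the labels. The deposited intensities are linear and scaled to medians of 0.998, with some values below 0; no label or header records how the authors corrected background or scaled them. The number of arrays limits the precision.

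Probes were named through the platform annotation: 15120 had 1 symbol, 38 several and 4661 none. RefSeq matched 15064 of them by Entrez identifier, and no symbol changed. Probes that lacked a value on at least 1 array were dropped. Signals under 0.5 of an array's median were raised to that floor before log2, and the brightest probe stood for its gene. A gene passed if it was 3-fold brighter or more, and at or above the median of that array. With 1 side at the floor the fold is a bound ("at least"); with both there, the difference was set to 0.

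No p-value is given. Alternatives were other scalings (quantile, loess with span 0.3, centring on 61 ribosomal protein genes), other floors, averaged probes, and limits of 2-fold and 5-fold. The procedure was run on simulated data with noise set from the median SD between probes of these arrays, 0.59. That noise holds no variation between animals. The text names all fiber genes, their nearest relatives and, per list, up to 4 genes that passed with the largest differences; other genes were named after their values were seen. Genes and lists were chosen with earlier results of these data known. Python 3.11.15, numpy 2.4.6, pandas 2.3.3, statsmodels 0.14.6 and matplotlib 3.10.9 were used.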

Additional observations from a re-analysis of the deposited data

How the results depend on the processing

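Of the 6 measured fiber genes, 5 passed the 3-fold limit in cortex with the deposited scaling, and 3 did after quantile normalization, after loess and after centring on ribosomal protein genes. Changing or removing the floor, or averaging probes, left all 6 values as they were, since each gene has 1 probe and lies above the median on both arrays. A 2-fold limit gave 6 and a 5-fold limit 4. Over all genes, 1290 passed in cortex and 1120 in epithelium. Ribosomal centring gave 595 and 2480, and cortex then held 19.3% of the calls in place of 53.5%. The 2-fold limit gave 2243 and 2101, and the 5-fold limit 698 and 477. The median log2 difference of the fiber genes was 2.47 with the deposited scaling and 1.53 to 1.57 under the 3 others. No replicate could be left out, and no paired analysis was possible because each tissue has 1 array. None of the 6 genes has a second probe to set against its value.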
